A study of Mus musculus with 4 samples.

Results

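Imprinted genes outside the Dlk1-Dio3 domain were followed in mouse embryonic fibroblasts undergoing reprogramming with or without activated AKT. The members were 33 genes taken by symbol, and all 62 non-control probes carrying one of these symbols were used, of 55681 probes for 34816 genes on the array, 22296 of them with a gene symbol. By the allele that is usually expressed, 18 members are paternally expressed and 8 are maternally expressed, and 7 are imprinted only in some tissues or isoforms. A total of 27 members were measured, that is, called well above background by the scanner software, on all 4 arrays. Another 3 members were measured on 3 arrays each, and 3 members, Usp29, Phlda2 and Nespas, on none.

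Each of the 4 groups was represented by 1 single-colour array at 8 days postinfection (dpi). All cells were fibroblasts of male E13.5 embryos with an EGFP transgene driven by Oct4 regulatory sequence (OE-MEFs), from a pool of embryos, and all had received Oct4, Sox2 and Klf4 by retrovirus (OSK). OSKA cells had also received AKT-MER by retrovirus, a fusion of myristoylated AKT with a modified estrogen receptor that its ligand 4-hydroxytamoxifen (4OHT) activates. The groups were OSK − 4OHT, OSK + 4OHT, OSKA − 4OHT and OSKA + 4OHT, with 4OHT or its ethanol vehicle given from 3 dpi, and the last are the AKT-activated cells. The free-text description of the OSKA + 4OHT sample speaks of AKT-MER that was not activated, and its title, which fits the series design, was followed.

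Imprinted genes are transcribed mainly or only from the chromosome of one parent. The choice of allele is set by DNA methylation that is laid down in one parent's germ cells at an imprinting control region and kept through the divisions of the embryo by DNMT1, UHRF1 and the zinc finger proteins ZFP57 and ZFP445 with TRIM28. Many imprinted genes act on fetal growth: paternally expressed genes such as Igf2 often promote it, and maternally expressed genes such as Cdkn1c, Grb10 and Igf2r often restrain it. The arrays read RNA of both alleles together, so they show a gene's total level and not which allele was active.

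A level is the log2 of a probe's intensity over its array's 75th percentile, so that 0 lies at that percentile, and a difference of 1 is 2-fold. A gene with several probes was represented by its brightest one. Levels of different probes cannot be set against each other, and each gene is compared only with itself. With 1 array per group there was no replicate check and no test. Beside a difference stands the error given by the error model of the scanner software, which covers the measurement on the arrays and not the spread between cultures. Its median over the members' differences was 0.20. In this bulk RNA, fewer cells of a type and less RNA per cell cannot be told apart.

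The genes that varied most among the members were Nnat, Slc38a4 and Grb10, while Mest and Peg3 had 4OHT effects of opposite direction in OSK and OSKA cells. Their promoters are shown because the members that moved most differ widely in CpG content, the substrate of imprinting methylation. Each line gives, 5′ to 3′, 250 bases before to 50 bases after a RefSeq transcript start (GRCm38.p6), with every CG dinucleotide in capitals, and where RefSeq has several starts the window with the most CG was taken.
Nnat promoter, chr2:157559828-157560127, forward strand: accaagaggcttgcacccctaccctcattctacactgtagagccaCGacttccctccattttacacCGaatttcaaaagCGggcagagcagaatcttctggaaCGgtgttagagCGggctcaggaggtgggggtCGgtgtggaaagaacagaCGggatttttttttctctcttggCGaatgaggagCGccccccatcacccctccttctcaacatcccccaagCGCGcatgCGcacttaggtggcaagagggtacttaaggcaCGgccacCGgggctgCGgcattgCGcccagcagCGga
Mest promoter, chr6:30737800-30738099, forward strand: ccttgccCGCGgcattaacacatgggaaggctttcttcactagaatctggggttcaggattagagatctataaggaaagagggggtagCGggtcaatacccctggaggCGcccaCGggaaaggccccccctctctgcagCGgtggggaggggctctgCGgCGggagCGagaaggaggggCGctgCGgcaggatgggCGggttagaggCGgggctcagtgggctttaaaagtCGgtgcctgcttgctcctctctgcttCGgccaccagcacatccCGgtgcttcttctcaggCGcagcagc
Slc38a4 promoter, chr15:97020310-97020609, reverse strand: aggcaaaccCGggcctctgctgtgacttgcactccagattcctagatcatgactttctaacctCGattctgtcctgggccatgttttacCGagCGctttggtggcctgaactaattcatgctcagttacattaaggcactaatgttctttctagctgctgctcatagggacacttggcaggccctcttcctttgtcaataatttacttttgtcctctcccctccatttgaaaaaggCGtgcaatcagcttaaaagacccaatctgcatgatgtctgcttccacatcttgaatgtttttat
Peg3 promoter, chr7:6730370-6730669, reverse strand: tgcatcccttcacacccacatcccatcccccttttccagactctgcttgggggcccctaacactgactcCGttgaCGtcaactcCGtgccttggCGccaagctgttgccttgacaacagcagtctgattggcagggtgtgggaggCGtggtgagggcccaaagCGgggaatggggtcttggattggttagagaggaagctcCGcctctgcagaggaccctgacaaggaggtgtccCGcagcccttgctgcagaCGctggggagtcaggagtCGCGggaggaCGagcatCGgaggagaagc
Grb10 promoter, chr11:12037371-12037670, reverse strand: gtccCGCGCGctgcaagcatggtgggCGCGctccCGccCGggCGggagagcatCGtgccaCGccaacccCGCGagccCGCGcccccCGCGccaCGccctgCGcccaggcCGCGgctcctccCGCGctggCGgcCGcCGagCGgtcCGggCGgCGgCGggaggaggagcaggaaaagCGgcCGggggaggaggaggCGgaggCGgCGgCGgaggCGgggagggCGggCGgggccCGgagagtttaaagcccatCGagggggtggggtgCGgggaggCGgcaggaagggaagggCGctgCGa
The Nnat and Mest windows held 17 CG each, the Peg3 window 13, the Grb10 window 45 and the Slc38a4 window 5. Promoter entries were found for 27 of the 33 members (43 windows), not for Impact, Cdkn1c, Nespas, H19, Peg10 or Sgce. The median number of CG per window was 13 for the members and 7 over all 32851 promoter windows. The letters TGCCGC, the core that ZFP57 binds when methylated, were searched on both strands. They occurred in 8 of the members' 43 windows (18.6%) and in 11.6% of all windows. By gene, that was 7 of 27 (Nnat, Mest, Zim1, Snrpn, Igf2, Plagl1 and Grb10), or 25.9%, against 13.1% of all genes with a window. The letters contain CG, of which the members' windows held more, and the shares were not adjusted for this. The windows counted include overlapping ones of Mest, starting at 30737800 and 30737803. These windows surround transcript starts and need not hold the imprinting control region, and nothing here bears on methylation or binding.

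For H19, the noncoding RNA of the Igf2 locus, the array held 7 probes at separate positions. The sequences of 3 of them, 5′ to 3′ with NCBI37 coordinates from the files, show which stretches were read.
H19 probe, chr7:149761492-149761551, reverse strand: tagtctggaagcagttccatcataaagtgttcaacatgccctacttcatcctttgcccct
H19 probe, chr7:149761756-149761815, reverse strand: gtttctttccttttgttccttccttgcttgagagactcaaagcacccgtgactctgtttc
H19 probe, chr7:149762173-149762232, reverse strand: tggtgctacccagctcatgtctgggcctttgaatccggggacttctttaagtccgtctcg
The other 4 H19 probes lay between 149761693 and 149762476 on the same strand of chromosome 7. Of these, the probe at 149762417 to 149762476 was well above background on 2 arrays only, and the others on all 4.

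Neuronatin (Nnat), a small proteolipid of the endoplasmic reticulum that is paternally expressed from within an intron of Blcap, was the member that varied most. Its probe (chromosome 2, 157387978 to 157388037, forward strand, NCBI37) read −2.76 in OSK − 4OHT, −3.05 in OSK + 4OHT, −2.76 in OSKA − 4OHT and −1.33 in OSKA + 4OHT cells. The AKT-activated cells stood alone, above the other 3 groups. In OSKA cells Nnat was 2.69-fold higher with 4OHT (log2 difference 1.43, software error 0.22), and among cells given 4OHT it was 3.29-fold higher with AKT-MER (1.72, software error 0.23). A second Nnat probe gave 1.77 and 1.42 for the same differences. In OSK cells the probes differed in sign at −0.29 and 0.23, each close to the software error. With normexp background correction (offset 50) and quantile normalization together, the 4OHT effect in OSKA cells was 0.93 and thus just under 2-fold. Nnat is abundant in brain, and of 5 neural markers 4 were measured, with 4OHT effects between −0.51 and 0.13 in OSKA cells, while Elavl3 was not well above background. For OSKA against OSK cells with 4OHT they lay between −0.41 and 0.89, the highest being Map2, which was also higher by 0.96 without 4OHT. The part of such cells in the Nnat difference was not tested. Blcap, the host gene, with levels of 0.35, 0.44, 0.56 and 0.78 in the same order of groups, was also highest in the AKT-activated cells, by 0.22 over OSKA − 4OHT, close to the software error.

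Mest, which encodes a protein of the alpha/beta hydrolase family and is paternally expressed, was also highest in the AKT-activated cells. Its probe (chromosome 6, 30698279 to 30698338, forward strand) was spotted 10 times on each array and read 4.75, 4.53, 4.63 and 5.19 in OSK − 4OHT, OSK + 4OHT, OSKA − 4OHT and OSKA + 4OHT cells. The lowest of the 10 spots in AKT-activated cells, at 5.07, lay above the highest spot of any other group, at 4.82. These spots share 1 RNA sample and are not replicates of the culture. With 4OHT, Mest was 1.47-fold higher in OSKA cells (0.56) and lower by 0.22 in OSK cells. The 3 Mest probes gave 0.36 to 0.57 in OSKA cells and −0.23 to −0.06 in OSK cells.

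Slc38a4, a paternally expressed transporter of neutral amino acids, was lowest where Nnat and Mest were highest. Its probe (chromosome 15, 96825482 to 96825541, reverse strand) read 0.36 in OSK − 4OHT, −0.05 in OSK + 4OHT, 0.14 in OSKA − 4OHT and −0.77 in OSKA + 4OHT cells. The AKT-activated cells were lowest, and both differences to them were negative: −0.91 for the 4OHT effect in OSKA cells (software error 0.21) and −0.71 for OSKA against OSK cells with 4OHT. 4OHT alone, in OSK cells, came with a difference of −0.41. None of these reached 2-fold.

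**Figure D1:**
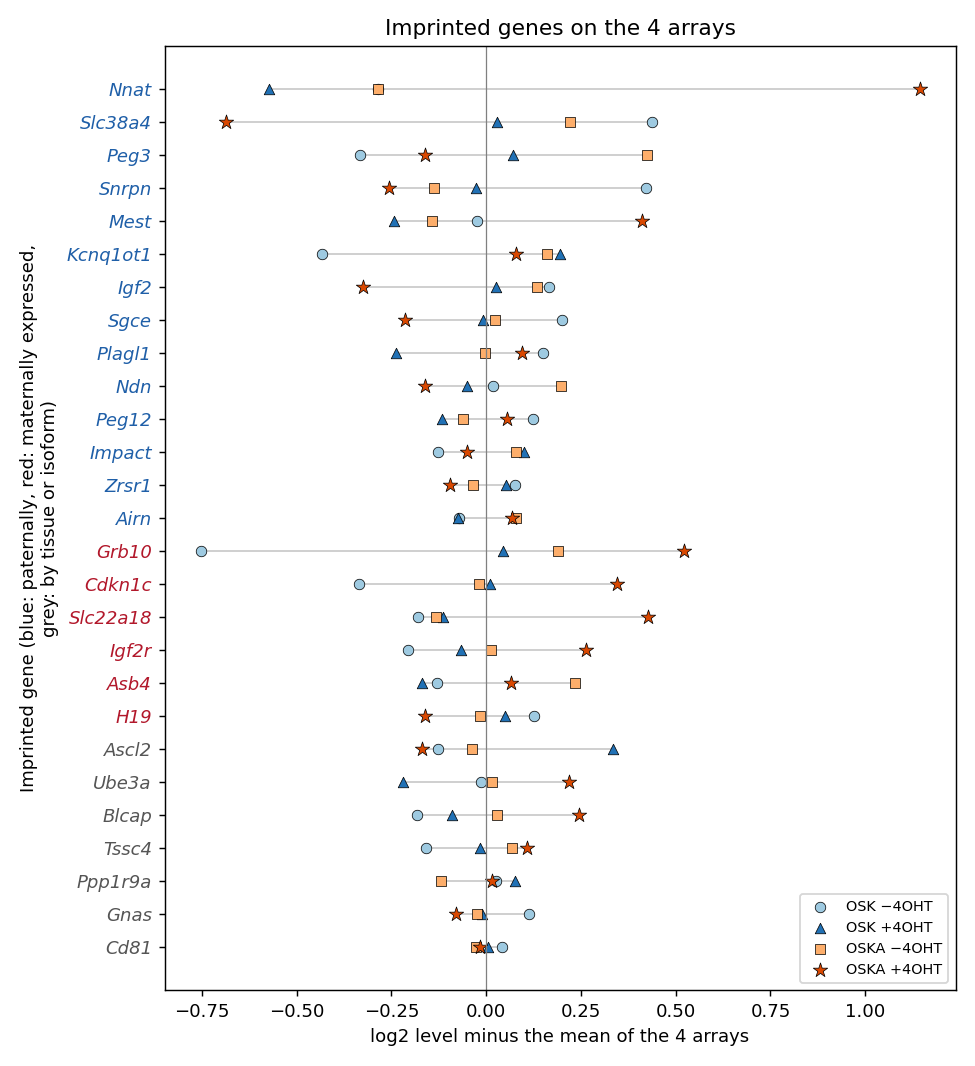
Level of each of the 27 imprinted genes measured on all 4 arrays, as the log2 level minus that gene's mean over the arrays (x axis). Markers stand for the 4 groups with 1 array each, and genes are grouped by expressed allele and sorted by range. The AKT-activated cells (stars) sit furthest right for Nnat and Mest and furthest left for Slc38a4, and OSK − 4OHT (circles) sits furthest left for Grb10 and Kcnq1ot1.

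Over the 4 arrays, the distance between a member's highest and lowest level reached 2-fold for 3 of 27 members: Nnat at 1.72, Grb10 at 1.28 and Slc38a4 at 1.12. That is 11.1%, beside 6.89% of all genes. The median range of the members was 0.43, and that of all genes 0.36. At the other end was Cd81, a tetraspanin, whose 4 levels of 7.10, 7.06, 7.03 and 7.04 spanned 0.07. The AKT-activated cells held the highest level of 9 members, namely Nnat, Mest, Grb10, Cdkn1c, Igf2r, Slc22a18, Tssc4, Ube3a and Blcap (33.3%, beside 27.3% of all genes), and the lowest level of another 9, namely Slc38a4, Igf2, H19, Sgce, Ndn, Snrpn, Gnas, Ascl2 and Zrsr1 (33.3%, beside 37.5% of all genes). By class, 4 of 6 maternally expressed (66.7%), 2 of 14 paternally expressed (14.3%) and 3 of 7 tissue or isoform members (42.9%) were highest there. Lowest there were 1, 6 and 2 of them in the same order. The 4 maternally expressed members, Cdkn1c, Grb10, Igf2r and Slc22a18, were also lowest in OSK − 4OHT cells.

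Grb10, an adaptor that binds the insulin and IGF1 receptors and dampens their signal, is expressed from the maternal allele in most tissues. Its probe (chromosome 11, 11833165 to 11833224, reverse strand) read 1.69 in OSK − 4OHT, 2.49 in OSK + 4OHT, 2.63 in OSKA − 4OHT and 2.97 in OSKA + 4OHT cells. OSK − 4OHT was lowest, and every difference was positive: 0.80 for 4OHT in OSK cells, 0.33 for 4OHT in OSKA cells, 0.94 for OSKA against OSK cells without 4OHT and 0.48 with 4OHT. The larger 2 of these therefore involve the OSK − 4OHT array. All 4 macrophage markers, Csf1r, Adgre1, Cd68 and Ptprc, were also lowest on that array, with a median difference of 0.56 for 4OHT in OSK cells and of 0.52 for OSKA against OSK cells without 4OHT. With spike-in scaling these medians were 0.25 and 0.08. The markers then ran from −0.04 to 0.17 in the latter comparison, so not all 4 were lowest on that array. The part of those cells in the Grb10 differences was not tested. Ikzf1, a transcription factor of blood cells 172 kb from the Grb10 probe, chosen after its values were seen, gave 0.91 and 0.90 in the same comparisons, and its other probe 0.40 and 0.21.

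OSK − 4OHT was lowest for 9 of 27 members (33.3%, beside 27.2% of all genes), among them Peg3, Kcnq1ot1 and Impact. It was highest for 10 (37.0%, beside 31.6%). With spike-in scaling it was lowest for 2 and highest for 18 members (beside 4.01% and 78.9% of all genes). Peg3, a paternally expressed zinc finger protein, read −0.09, 0.31, 0.66 and 0.08 in OSK − 4OHT, OSK + 4OHT, OSKA − 4OHT and OSKA + 4OHT cells (chromosome 7, 6658774 to 6658833, reverse strand). It was highest in OSKA cells without 4OHT. The 4OHT effect was 0.40 in OSK and −0.59 in OSKA cells, and its second probe gave 0.33 and −0.48. Without 4OHT, OSKA cells exceeded OSK cells by 0.76, and with 4OHT the probes gave −0.23 and 0.04. Kcnq1ot1, the paternally expressed noncoding RNA that silences the Kcnq1 cluster, read −0.15, 0.47, 0.44 and 0.36. Only OSK − 4OHT stood apart, with differences to it of 0.63 and 0.59. Its second probe gave 0.20 and 0.51. Impact, a regulator of the kinase GCN2, had representative differences of 0.23 and 0.20 to the same array, and 0.78 and 0.98 by its other probe. With spike-in scaling the representative differences were −0.09 and −0.24.

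**Figure D2:**
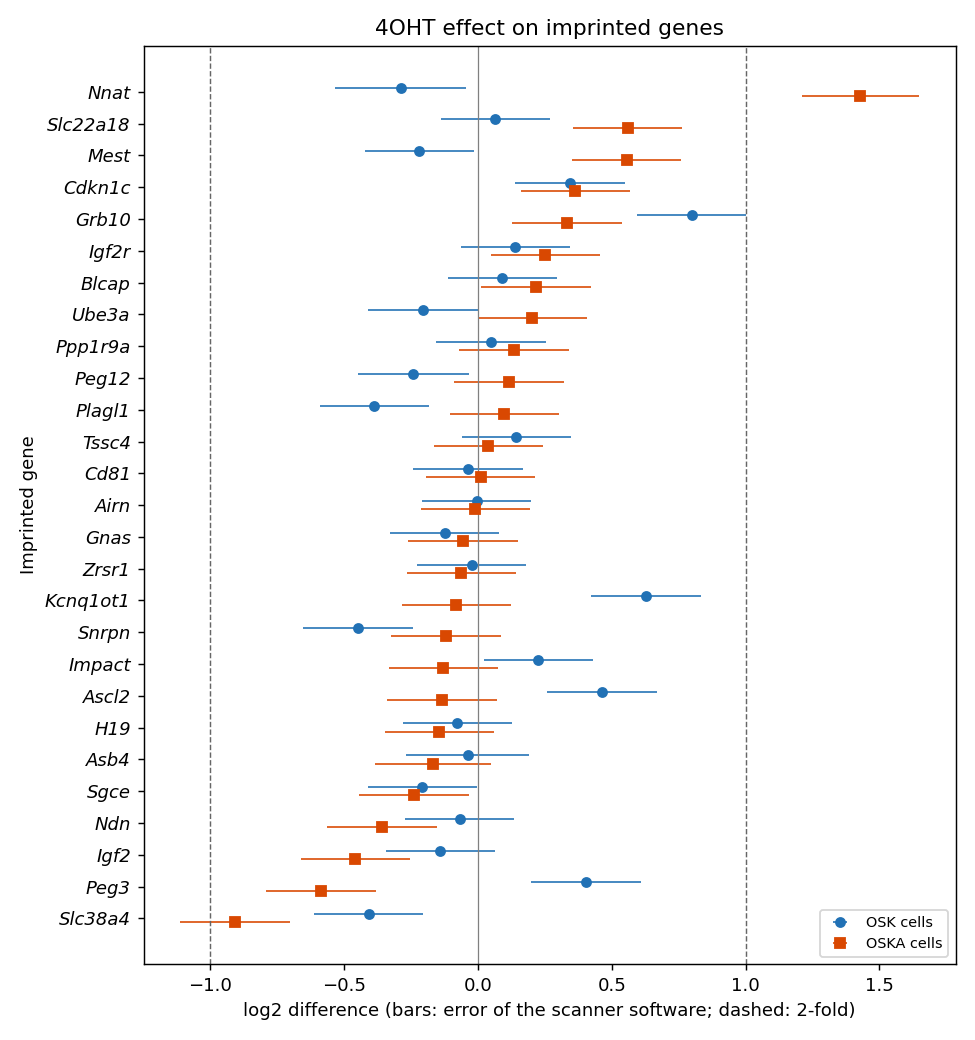
4OHT effect (log2 difference with minus without 4OHT, x axis) on the 27 imprinted genes measured on all 4 arrays, in OSK cells (circles) and OSKA cells (squares), 1 array per group. Bars are the error of the scanner software and dashed lines mark 2-fold. Nnat in OSKA cells, at 1.43, lies beyond the dashed lines, and no gene in OSK cells does.

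The 4OHT effect in OSK cells is a control for 4OHT itself, since these cells lack AKT-MER. There, 0 of 28 measured members differed by 2-fold or more, beside 0.886% of all genes, and 2 differed by at least 1.5-fold (7.14%, beside 5.95% of all genes). Those 2 were Grb10 and Kcnq1ot1. When the arrays were scaled to the spike-in probes instead, both fell under 1.5-fold (0.49 and 0.32), and Snrpn (−0.76), Slc38a4 (−0.72), Plagl1 (−0.70) and Nnat (−0.60) passed it in the other direction. In OSKA cells, where 4OHT activates AKT-MER, 1 of 29 members differed by 2-fold (3.45%, beside 2.91% of all genes), and 4 differed by at least 1.5-fold (13.8%, beside 9.69%). The 2-fold member was Nnat, and Slc38a4, Zim1 and Peg3 were past 1.5-fold in the other direction, Peg3 not so with spike-in scaling (−0.57). The median difference of the members was −0.03 in OSK and −0.03 in OSKA cells, and that of all genes 0.00 and −0.03. The shares of members past 2-fold thus lay near those of all genes. Subtracting the OSK value from the OSKA value of each gene left Nnat alone of 27 members past 2-fold (3.70%, beside 5.28% of all genes).

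AKT-activated cells were also compared with OSK cells given the same 4OHT, so that 4OHT itself was common to both. Here 1 of 29 members, Nnat, differed by 2-fold (3.45%, beside 3.04% of all genes), and Nnat, Slc38a4 and Mest differed by 1.5-fold or more (3 of 29, beside 10.6%). Without 4OHT, OSKA against OSK cells gave 0 of 28 members at 2-fold, beside 2.02% of all genes, and Grb10, Peg3 and Kcnq1ot1 were past 1.5-fold (3 of 28, beside 9.65%). With spike-in scaling these were at 0.50, 0.31 and 0.15, and 7 members passed 1.5-fold in the other direction, Ppp1r9a (−0.59) the least and Snrpn the most. With 4OHT, that scaling put Mest at 0.54 and took Ascl2 past 1.5-fold, at −0.62. The members' medians were −0.02 with and 0.01 without 4OHT, and those of all genes −0.05 and −0.02. The comparisons share arrays pairwise and are not independent of each other.

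**Figure D3:**
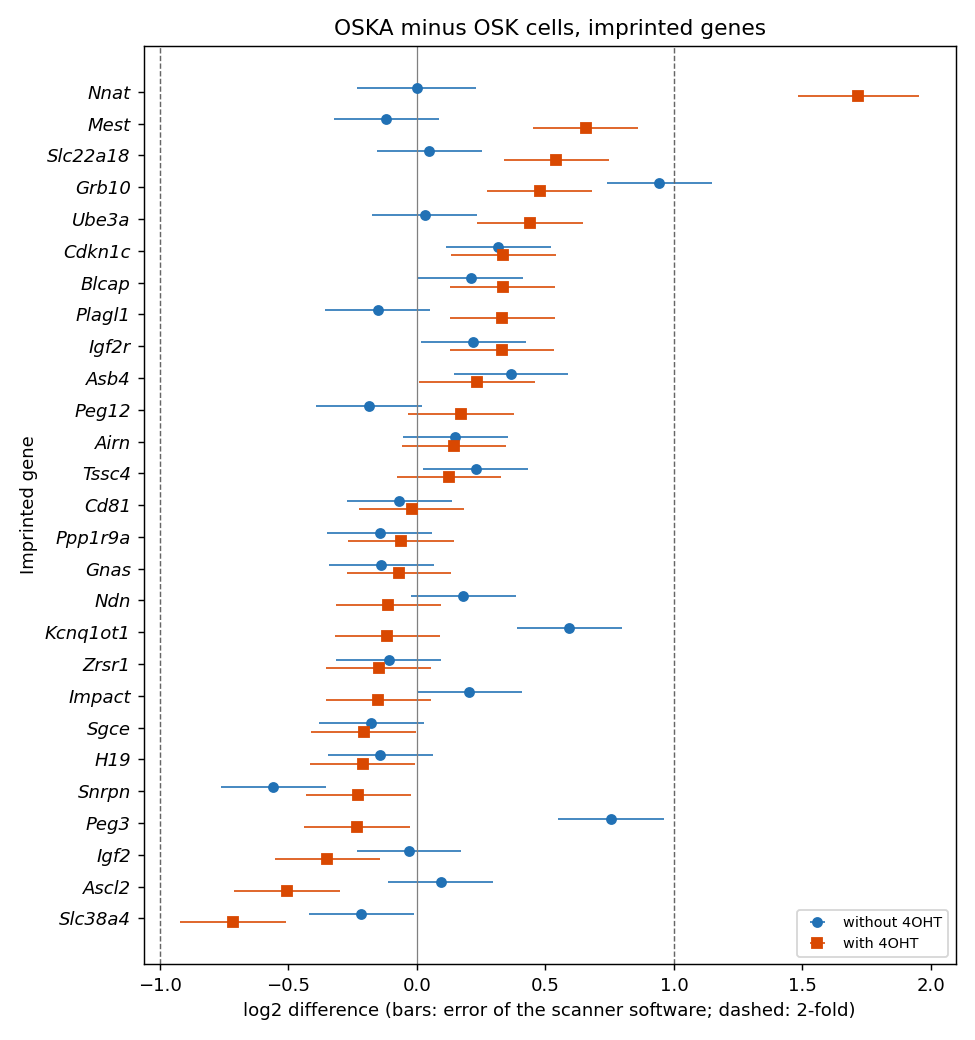
OSKA minus OSK cells (log2 difference, x axis) for the same 27 imprinted genes without 4OHT (circles) and with 4OHT (squares), 1 array per group. Bars are the error of the scanner software and dashed lines mark 2-fold. Grb10, Peg3 and Kcnq1ot1 lie furthest right without 4OHT, and Nnat at 1.72 is beyond 2-fold with 4OHT.

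At the Igf2-H19 locus on chromosome 7 both genes were lowest in AKT-activated cells. Igf2, the paternally expressed growth factor (149839661 to 149839720, reverse strand), read 2.91, 2.77, 2.88 and 2.42 in OSK − 4OHT, OSK + 4OHT, OSKA − 4OHT and OSKA + 4OHT cells. Its 4OHT effect was −0.46 in OSKA cells (software error 0.20) and −0.14 in OSK cells. H19, expressed from the maternal allele, read 8.51, 8.44, 8.37 and 8.23. All of its measured probes gave differences below 0 in every comparison. The H19 probes ranged from −0.34 to −0.08 for 4OHT in OSK cells and from −0.14 to −0.01 in OSKA cells, on 6 probes each. The H19 sign was not kept by every scaling: for OSKA against OSK cells with 4OHT it was −0.21 here, but 0.08 after quantile normalization.

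In the Kcnq1 cluster, controlled from the Kcnq1ot1 promoter, Cdkn1c, which encodes the cell cycle inhibitor p57, read 4.69, 5.03, 5.01 and 5.37 in OSK − 4OHT, OSK + 4OHT, OSKA − 4OHT and OSKA + 4OHT cells (150644753 to 150644812, reverse strand). The lowest was OSK − 4OHT and the highest OSKA + 4OHT, with a 4OHT effect of 0.34 in OSK and 0.36 in OSKA cells. Slc22a18, a maternally expressed membrane transporter, read 1.80, 1.86, 1.85 and 2.41. Only the AKT-activated cells differed, by 0.56 from OSKA − 4OHT and by 0.54 from OSK + 4OHT. Ascl2, a transcription factor of the trophoblast, was highest in OSK + 4OHT at −0.08, and the other groups lay between −0.59 and −0.45. Tssc4 lay between 3.01 and 3.28, and Phlda2, a restraint on placental growth, had no array well above background.

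The Igf2r locus holds Igf2r, a receptor that takes IGF2 out of circulation, and Airn, the paternal noncoding RNA that silences it. Igf2r, also spotted 10 times, read 3.25, 3.39, 3.47 and 3.72, lowest in OSK − 4OHT and highest in OSKA + 4OHT cells, and its spots had SDs between 0.039 and 0.053. Airn lay between 2.34 and 2.49 by its brightest probe, with differences all within its software error. Of its 3 other probes, 2 were measured for 4OHT in OSK cells, at −0.30 and 0.03, and for OSKA against OSK cells with 4OHT, at 0.39 and 0.00. The remaining one was not well above background in OSK + 4OHT cells. OSKA + 4OHT cells read 1.51-fold above that dim reading, which is no bound. Without 4OHT, all 3 were higher in OSKA cells, by 0.05 to 0.41.

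In the Peg3 cluster, Zim1, a maternally expressed zinc finger gene, was not well above background in OSK − 4OHT cells and read −3.81, −3.05 and −3.97 in OSK + 4OHT, OSKA − 4OHT and OSKA + 4OHT cells. Against the lowest signal well above background, it was at least 1.81-fold higher in OSK + 4OHT and at least 3.06-fold higher in OSKA − 4OHT than in OSK − 4OHT cells. A second Zim1 probe was well above background in OSK + 4OHT cells alone, at −4.18, and so gave no such bound for OSKA − 4OHT. Its dim reading there was −5.09, so unlike the first probe it was not highest in OSKA − 4OHT. By it, OSKA + 4OHT cells lay at least 1.51-fold below OSK + 4OHT, where the first probe gave −0.16. The bound of 3.06 lies past 2-fold and is not among the counts, which take only genes measured on both arrays. With 4OHT, Zim1 in OSKA cells was lower by 0.92 (software error 0.32), but by 0.27 with normexp and quantile normalization. Usp29, a ubiquitin protease gene of the cluster, was not measured.

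In the Snrpn cluster, Snrpn, a component of splicing particles, read 0.36, −0.09, −0.20 and −0.32 in OSK − 4OHT, OSK + 4OHT, OSKA − 4OHT and OSKA + 4OHT cells, highest in OSK − 4OHT. A second Snrpn probe gave 0.68 for 4OHT in OSKA cells where the brightest gave −0.12. Ndn, a MAGE family protein, read 1.06, 0.99, 1.24 and 0.88, lowest in AKT-activated cells. Peg12, of the Frat family, lay between −0.91 and −0.67, and its probes differed in sign, at −0.24 and 0.73 for 4OHT in OSK cells. Magel2, another MAGE gene, was not well above background in OSK + 4OHT cells. Its dim reading there lay 1.58-fold below OSK − 4OHT, which is no bound. It differed by −0.03 with 4OHT in OSKA cells. Ube3a, a ubiquitin ligase imprinted in neurons, read −0.35, −0.56, −0.32 and −0.12.

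In the Peg10 cluster, Peg10, derived from a retrotransposon, was not well above background in OSKA − 4OHT cells and read −4.20, −4.22 and −3.71 in OSK − 4OHT, OSK + 4OHT and OSKA + 4OHT cells. Its reading in OSKA + 4OHT was 2.18-fold above that in OSKA − 4OHT cells, again outside the counts. That is a plain difference to a dim reading of −4.83 and no lower bound. The measured Peg10 differences had software errors of 0.42 and 0.38. A second Peg10 probe was well above background on no array. Sgce, epsilon-sarcoglycan, which shares a promoter region with Peg10, read 2.32, 2.11, 2.14 and 1.90, lowest in AKT-activated cells. Asb4, a subunit of ubiquitin ligases, was higher in both OSKA groups, at −1.87 and −2.04, than in both OSK groups, at −2.24 and −2.28. Ppp1r9a, the actin-binding protein neurabin, lay between −0.82 and −0.63.

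The Gnas locus encodes the stimulatory G protein subunit and other products. The brightest Gnas probe read 6.53, 6.41, 6.39 and 6.34, a range of 0.19. A probe for another Gnas transcript read −3.58, −2.73, −2.15 and −1.97, lowest in OSK − 4OHT, and gave 0.85 for 4OHT in OSK cells and 1.43 for OSKA against OSK cells without 4OHT. Another gave −0.06 and 0.25, and the last was not well above background. Nespas, the antisense RNA of the locus, was not measured. Of the remaining single loci, Plagl1, a zinc finger transcription factor, read 5.93, 5.54, 5.77 and 5.87 by its brightest probe, and its 4 probes ran from −0.44 to 0.17 for 4OHT in OSK cells. Zrsr1, related to splicing factor U2AF, lay between 1.01 and 1.19.

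**Figure D4:**
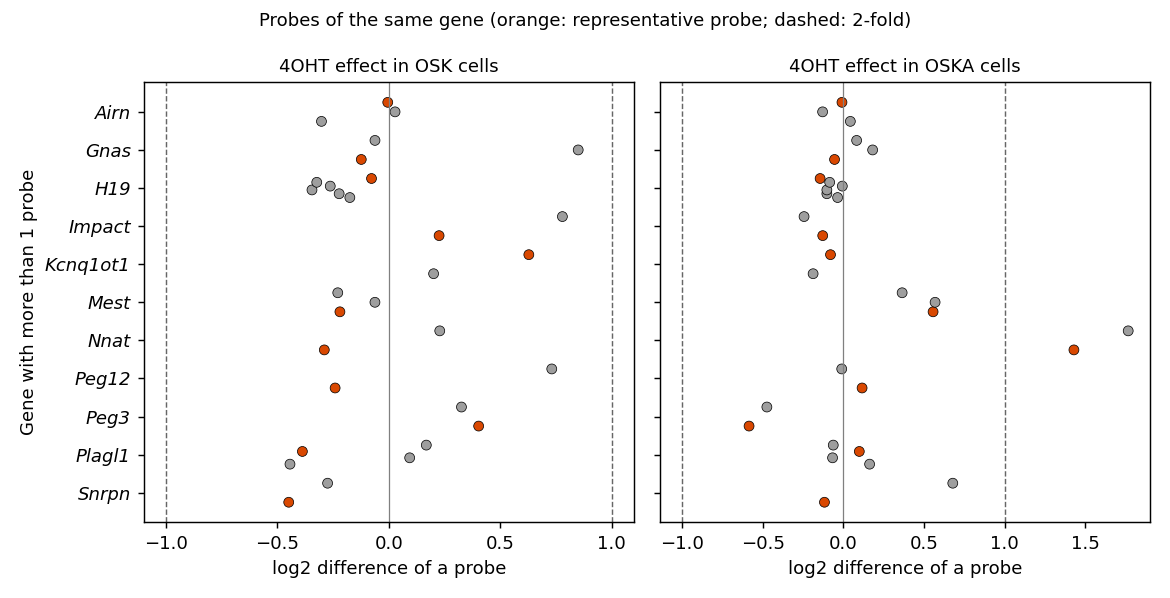
Log2 difference of every probe measured on all 4 arrays, for the imprinted genes with more than 1 such probe, for the 4OHT effect in OSK cells (left) and OSKA cells (right). Orange marks the brightest probe, which represents the gene, and dashed lines mark 2-fold. The probes of H19, Mest and Peg3 lie on one side of 0 in both panels, and those of Gnas, Peg12 and Plagl1 lie on both sides.

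Agreement between probes of the same gene bears on how far a single value can be read. A total of 11 members had at least 2 measured probes, and their probes shared a sign in 6 of 11 genes for the 4OHT effect in OSK cells and in 6 of 11 in OSKA cells. For OSKA against OSK cells the counts were 7 without and 5 with 4OHT. The median spread between probes of a gene was 0.43 in OSK and 0.17 in OSKA cells for the 4OHT effect. In all, 4 of 28 members in OSK cells and 7 of 29 in OSKA cells reached 2 times the software error (14.3% and 24.1%, beside 10.6% and 15.6% of all genes).

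By expressed allele, the median 4OHT effect of the paternally expressed members was −0.14 in OSK and −0.08 in OSKA cells, and that of the maternally expressed members 0.10 and 0.25. Of 15 measured paternally expressed members, 3 in OSK and 4 in OSKA cells lay above 0 (20.0% and 26.7%, beside 49.4% and 45.2% of all genes). For the maternally expressed members it was 4 of 6 (66.7%) and 4 of 7 (57.1%). For OSKA against OSK cells, the medians were −0.11 without and −0.12 with 4OHT for paternally expressed members, and 0.27 and 0.33 for maternally expressed ones. There, 5 of 15 paternally expressed members without and 6 of 15 with 4OHT lay above 0. These are 33.3% and 40.0%, beside 47.0% and 42.9% of all genes, so the latter lay near the share of all genes. For maternally expressed members it was 5 of 6 (83.3%) and 5 of 7 (71.4%). These are counts of mostly small differences without a test. Scaling to the spike-in probes lowers all genes by 0.31 for 4OHT in OSK cells and by 0.44 for OSKA against OSK cells without 4OHT, the comparisons that use OSK − 4OHT, and both classes then had negative medians there. This moves every gene downward by the same amount, so positive values smaller than the shift turn negative. The sign turned for 6 and 11 of 28 members in these comparisons (21.4% and 39.3%, beside 36.5% and 37.3% of all genes), Igf2r in both and Cdkn1c in the latter.

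Other gene lists give the surroundings. Of 39 other imprinted genes 29 were measured, with medians of 0.01 for 4OHT in OSK cells and 0.10 in OSKA cells. Ddc, aromatic amino acid decarboxylase, an imprinted neighbour of Grb10, read −1.10, −1.15, −1.01 and 0.19 in OSK − 4OHT, OSK + 4OHT, OSKA − 4OHT and OSKA + 4OHT cells. It was the only one of them past 2-fold with 4OHT in OSKA cells, at 1.20, with 1.32 by a second probe, and it reached 1.34 for OSKA against OSK cells with 4OHT. In that comparison 3 of the 29 were at least 2-fold higher (10.3%, beside 1.92% of all genes in that direction): Ddc, Nap1l5 at 1.31 and Htr2a, a serotonin receptor, at 1.11. Without 4OHT, Inpp5f, an inositol phosphatase, at 1.20 and Htr2a at 1.12 were 2-fold higher in OSKA cells (6.90%, beside 1.09%). With spike-in scaling these became 0.76 and 0.68, and Htr2a with 4OHT 0.99, all under 2-fold. With normexp and quantile normalization Inpp5f, Htr2a and Nap1l5 were all under 2-fold as well, and Ddc was at 0.97 for 4OHT in OSKA cells.

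Of 16 factors that keep or remove imprinting methylation 15 were measured, and none differed by 2-fold in any comparison. With 4OHT in OSKA cells, Dnmt1 differed by −0.06 and Trim28 by −0.10, on 1 probe each. Uhrf1 differed by 0.11 by its brightest probe and by 0.61 by its second, and Zfp57 by 0.08 and −0.61, so its probes disagreed in sign. For OSKA against OSK cells with 4OHT, both Zfp57 probes were negative, at −0.32 and −0.82. Tet1, a 5-methylcytosine dioxygenase, differed by 0.79 and Dnmt3l by 0.59, the 2 of the 15 past 1.5-fold by their brightest probe (13.3%, beside 9.69% of all genes), with −0.30 and 0.11 in OSK cells. The other 2 Tet1 probes gave 0.38 and 0.44 in OSKA cells, under 1.5-fold, and −0.27 and 0.28 in OSK cells. Between OSKA and OSK cells given 4OHT, Tet1 at 0.83 and Tet2 at 0.67 were past 1.5-fold (13.3%, beside 10.6%), and the other Tet2 probes ran from −0.19 to 0.59. Tet2 fell under 1.5-fold with spike-in scaling (0.56) and in the mean of its probes (0.36). In OSKA cells with 4OHT, Dnmt3l did so with normexp (0.26) and Tet1 in the mean of its probes (0.54).

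The list of partners of IGF2 and GRB10 held receptors and their substrates (Igf1r, Insr, Irs1 and Irs2), the RNA-binding proteins Igf2bp1 to Igf2bp3, and the GRB10 relatives Grb7 and Grb14. Of 9 listed 8 were measured, all but Grb7, and for 4OHT in OSKA cells their median was −0.37 beside −0.03 for all genes. Only Grb14 lay above 0, at 0.10 (12.5%, beside 45.2% of all genes). The list was chosen with earlier results of these data known, so its shares and median describe it and are no independent support. The 4 that reached 2 times the software error (beside 15.6% of all genes) were Igf1r, Insr, Irs1 and Irs2, all lower. Irs2, an insulin receptor substrate, read 4.86, 4.84, 4.46 and 3.43 in OSK − 4OHT, OSK + 4OHT, OSKA − 4OHT and OSKA + 4OHT cells, and Igf1r, the IGF1 receptor, 3.66, 3.47, 3.36 and 2.42. Both were lowest in the AKT-activated cells. Irs2 was lower by 2-fold with 4OHT in OSKA cells, at −1.03 (12.5% of the list, beside 0.901% of all genes in that direction), and Irs2 at −1.41 and Igf1r at −1.06 were so for OSKA against OSK cells with 4OHT (2 of 8, beside 1.12%). With normexp and quantile normalization the latter Igf1r value was −0.98, just under 2-fold. The insulin receptor, Insr, gave −0.47 for 4OHT in OSKA cells, and −0.70 and −0.39 by its other probes. In OSK cells the median of the list was −0.03.

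Of 69 genes whose probes lie within 200 kb of a member's probe, 49 were measured for 4OHT in OSKA cells, and 1, 1700042O10Rik, 48 kb from the Grb10 probe, was 2-fold higher, at 1.16 (2.04%, beside 2.01% of all genes in that direction). With normexp and quantile normalization it was at 0.53. For OSKA against OSK cells with 4OHT, that gene was higher by 1.03, and by 0.92 with spike-in scaling and 0.42 with normexp, both under 2-fold. The neighbours' median was −0.02 for 4OHT in OSKA cells, near that of all genes.

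**Figure D5:**
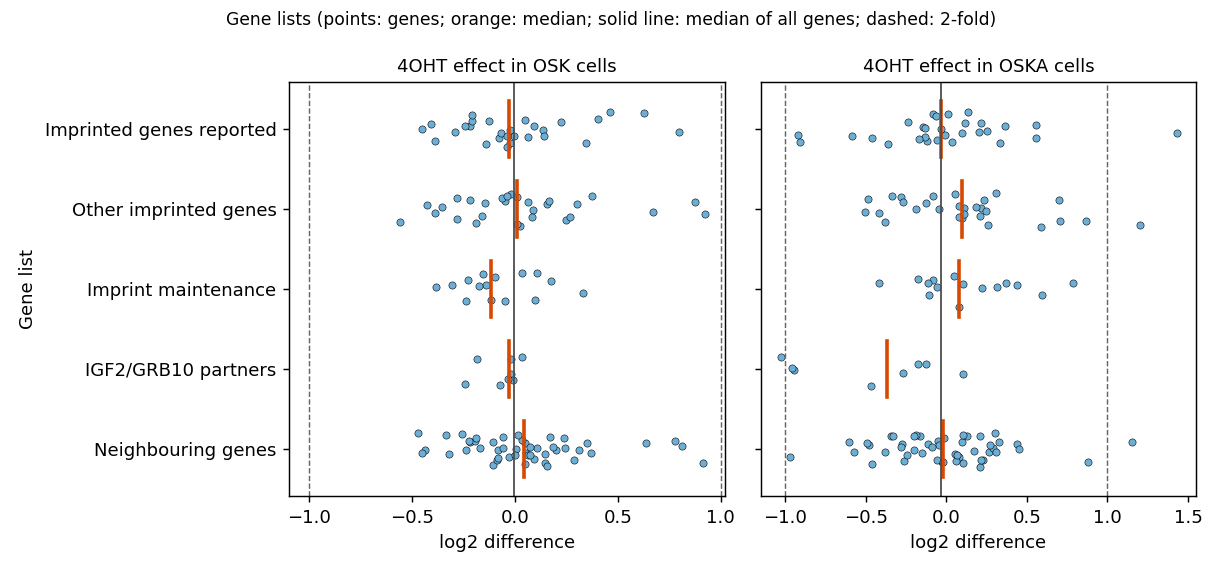
4OHT effect (log2 difference, x axis) in OSK cells (left) and OSKA cells (right) for the genes of 5 lists, each point a gene measured on both arrays. Orange bars are list medians, the solid line is the median of all genes, and dashed lines mark 2-fold. In OSKA cells the median of the partners of IGF2 and GRB10 is −0.37, while the other medians lie within 0.10 of 0. The lists were chosen with earlier results of these data known.

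As to the cells themselves, all 11 fibroblast markers were well above background on every array, and their differences had a median of 0.06 with 4OHT in OSKA cells, from −0.67 for Pdgfrb to 1.13 for Lum, a proteoglycan of the matrix. The median for OSKA against OSK cells with 4OHT was 0.37, from −0.76 for S100a4 to 1.65 for Lum. Of 5 muscle markers the regulators Myod1, Myog and Myf5 were not well above background, Des was so on 1 array, and Acta1 on all, lower by 1.17 with 4OHT in OSKA cells. Of 4 trophoblast markers 3 were not well above background. All 4 epithelial markers were measured, and Cdh1 and Krt8 were highest in OSK − 4OHT cells, with −1.05 and −1.23 for OSKA against OSK cells without 4OHT, while Krt18 was higher by 1.06 with 4OHT. Of 6 pluripotency markers 4 were detected, without Zfp42 and Esrrb, and the 4OHT effect had a median of 0.21 in OSK and −0.23 in OSKA cells. In OSK cells the values ran from −0.20 for Dppa5a to 0.53 for Nanog, whose second probe gave −0.53, and in OSKA cells from −0.73 for Tdgf1 to 0.53 for Dppa5a. With spike-in scaling the median in OSK cells was −0.10. All 4 macrophage markers (Ptprc, Csf1r, Adgre1 and Cd68) were detected on all arrays and were lowest in OSK − 4OHT cells. Their 4OHT effect ran from 0.50 to 0.64 in OSK cells, or 0.19 to 0.33 with spike-in scaling, and from −0.21 to 0.08 in OSKA cells. For OSKA against OSK cells without 4OHT they ran from 0.40 to 0.61, or −0.04 to 0.17 with spike-in scaling. With that scaling, then, not all 4 were lowest in OSK − 4OHT cells. The part of any of these cell types in the members' differences was not tested. Between 52.4% and 55.4% of spots per array were well above background and none were saturated. All arrays lay on 1 slide, where the place of an array and its group cannot be told apart.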

How the data were processed

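Per the labels, Cy3-labelled cRNA from 100 ng of total RNA was hybridised to Agilent arrays, 1 per group, and read with Feature Extraction 10.7.3.1. The authors deposited the scanner output, whose processed intensity is linear and corrected for background and trends by the software, but not normalized between arrays, and a value table of the same intensity. The ratio of table to scanner values was between 0.995 and 1.005, so its scale is linear and uncentred. The column medians of the table were 23.8, 19.6, 21.5 and 20.1.

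Here, log2 intensity was taken relative to the 75th percentile of non-control spots of each array (intensities of 462, 377, 403 and 383), repeat spots were averaged, and 104 to 155 spots per array marked as outliers were left out. Symbols of 27509 probes (49.4%) were updated through their RefSeq accession. A difference needed a probe well above background on both arrays. Otherwise the bright level was set against the lowest signal well above background on the dim array, which gives a bound. Where the dim probe's own level was higher than that signal, the value is a plain difference to it and no bound. A 2-fold difference was counted. There was no replicate and thus no test, and the number of arrays limits the precision. Named were all members, genes of the other lists past 2-fold (up to 3 per list and comparison), Dnmt1, Trim28, Zfp57, Uhrf1, Igf1r and Insr, and member probes that disagreed in sign or by over 2-fold, with exceptions noted in the text; 1 item named by this rule is not reported here. The members and lists were chosen with earlier results of these data known. Alternatives were quantile normalization, normexp background correction (offset 50, limma 3.58.1 in R 4.3.3) with quantile normalization, spike-in scaling, another percentile, other filters on dim probes, the mean of all probes, the deposited table, and thresholds of 1.5-fold and of 2 software errors. Other steps used Python 3.11.15 with pandas 2.3.3 and numpy 2.4.6 and were tested on simulated data.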

Additional observations from a re-analysis of the deposited data

Results flagged for a closer look

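For 3 members the 4OHT effect had opposite directions in OSK and OSKA cells, each beyond its software error, and the difference between the effects was not tested. For Nnat, the effect in OSKA cells exceeded that in OSK cells by 1.72, the only member past 2-fold in this measure. Its second probe had a positive effect in OSK cells (0.23), so the opposite direction rests on 1 probe. For Mest, the effect in OSKA cells exceeded that in OSK cells by 0.77, and all 3 probes had opposite signs in the 2 kinds of cells. For Peg3, the difference was −0.99, with opposite signs for both probes. With spike-in scaling its effect in OSK cells was 0.09, within the software error of 0.20.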

How the results depend on the processing

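No result changed direction while past 2-fold. Of 148 counts and medians recomputed under the alternatives, 118 stayed within the limits set for them. No paired analysis was possible because each group had 1 array, and for the same reason no replicate could be left out. Members past 2-fold numbered 1, 2 and 1 without the filter on dim probes for 4OHT in OSK cells, 4OHT in OSKA cells and OSKA against OSK cells without 4OHT (beside 7.11%, 9.58% and 8.59% of all genes). With normexp and quantile normalization, none was past 2-fold for 4OHT in OSKA cells (0, with Nnat at 0.93, beside 0.995% of all genes), and Nnat was at 1.04 for OSKA against OSK cells with 4OHT. At 1.5-fold the counts were 2, 4, 3 and 3, and at 2 software errors 4, 7, 4 and 7, for 4OHT in OSK cells, 4OHT in OSKA cells, and OSKA against OSK cells without and with 4OHT. The difference between the 4OHT effects was past 2-fold for 2 members with spike-in scaling (beside 6.54% of all genes) and for 3 without the filter (beside 15.7%).

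Spike-in scaling moved every median in the comparisons with OSK − 4OHT. For 4OHT in OSK cells the members' median became −0.34 (paternally expressed −0.45, maternally expressed −0.21, tissue or isoform −0.26), that of other imprinted genes −0.30, maintenance factors −0.43, signalling partners −0.34 and neighbours −0.27. For OSKA against OSK cells without 4OHT they became −0.43 (−0.55, −0.17 and −0.41 by class), −0.45, −0.51, −0.56 and −0.43 in the same order. Of all genes past 2-fold, the share that was higher went from 68.8% to 14.6% for 4OHT in OSK cells, from 53.8% to 4.46% for OSKA against OSK cells without 4OHT and from 63.2% to 48.6% with 4OHT. With normexp it was 84.2% in place of 69.0% for 4OHT in OSKA cells and 74.4% for OSKA against OSK cells with 4OHT. Under spike-in scaling the AKT-activated cells held the highest level of 6 members and OSK − 4OHT that of 18, in place of 9 and 10, while of all genes 8.67% and 78.9% were highest there, in place of 27.3% and 31.6%. The cause of these moves was not tested.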
